A study of Mus musculus with 5 samples.

Results

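Connexin and other intercalated disc genes were followed in mouse atria: the connexins Gja1, Gja5 and Gjc1, the desmosomal genes Dsp, Pkp2, Jup, Dsg2 and Dsc2, the classical cadherin gene Cdh2 and the scaffold gene Tjp1. They were chosen by name, were 10 of 57186 genes in the tables, and all 10 passed the expression filter that left 16412 genes for testing. The mice compared carried the E990G exchange in MRC2 on 1 allele (het) or were wild type (WT). Both groups were whole atria, snap-frozen, from animals of 4 to 10 months, and neither carried a further allele or treatment in the labels. The series describes 8 WT and 7 het animals, and 5 libraries were analysed here: het 5, het 6 and het 7, and WT 7 and WT 8, all of batch 2. The title of the series places the comparison in the setting of cardiac fibroblasts and susceptibility to atrial fibrillation.

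The intercalated disc joins cardiomyocytes end to end. Connexins form the gap junction channels that pass current between cells, and atrial muscle is known for using connexin 40 (Gja5) beside connexin 43 (Gja1). Desmosomes tie intermediate filaments to the membrane through desmosomal cadherins, armadillo proteins and desmoplakin, and N-cadherin and the scaffold ZO-1 share the same disc.

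Total expected counts per library, the read numbers that the authors' quantifier assigned to genes, ran from 17784601 (WT 8) to 28353091 (het 7). Mrc2, the gene that carries the exchange, differed by -0.01 on the log2 scale (SE 0.18, edgeR quasi-likelihood adjusted p = 0.973). Gene counts do not show an amino acid exchange, so this does not check the genotype labels. The atrial marker Nppa was abundant in every library, at 17767 to 20476 CPM in het and 27133 and 33852 CPM in WT (read counts relative to the library total, scaled by the TMM method). The labels used here give no sex, and WT 7 was the only library with more than 3 counts of the Y-linked gene Ddx3y (938). The X-linked RNA Xist had 13247 to 15280 counts in the het libraries, 6117 in WT 8 and 22 in WT 7. WT 7 and WT 8 are therefore unlike in this respect. The Y-linked pattern was found in the WT group alone, so the groups are not balanced, and its part in their differences was not tested. The p-values measure the spread between these 5 samples.

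Per transcript length, Gja1 was the most abundant of the 10 genes, at a mean of 184.2 TPM (a transcript's share of all transcripts in the library, scaled to a fixed total) over the 5 libraries. Dsp followed at 72.6 TPM, Jup at 69.9, Gja5 at 65.4, Cdh2 at 44.5 and Dsc2 at 39.8. Dsg2 averaged 31.4 TPM, Pkp2 28.9, Tjp1 21.4 and Gjc1 11.5. These TPM cover all transcripts of a gene, the non-coding ones included. Gja1 exceeded Dsp in 5 of 5 libraries. The order of Dsp over Jup, of Jup over Gja5 and of Dsg2 over Pkp2 held in 3 of 5 libraries each. For Dsp over Jup and for Dsg2 over Pkp2 these were het 5, het 6 and het 7. For Jup over Gja5 they were het 5, het 6 and WT 7. Cdh2 exceeded Dsc2 in 4 of 5 libraries, and every other neighbouring pair kept its order in 5 of 5.

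Among the connexins no gene passed the test. Gja1, which encodes connexin 43, stood at 480.7, 459.2 and 683.5 CPM in het 5, het 6 and het 7 and at 402.0 and 566.1 CPM in WT 7 and WT 8. Het 7 was the highest library and WT 7 the lowest, and the groups overlapped. The log2 difference, het against WT, was 0.16 (SE 0.21, 95% interval -0.30 to 0.62, edgeR quasi-likelihood test with Benjamini-Hochberg adjusted p = 0.685). This value rested on single libraries: it was -0.06 without WT 7, -0.04 without het 7 and 0.44 without WT 8, and 0.25 and 0.27 without het 5 and het 6.

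Gja5, which encodes the atrial and conduction system connexin 40, stood at 162.8, 137.4 and 197.3 CPM in het 5, het 6 and het 7 and at 188.0 and 211.1 CPM in WT 7 and WT 8. Het 5 and het 6 lay under both WT libraries, while het 7 lay between them. The log2 difference was -0.27 (SE 0.16, 95% interval -0.61 to 0.07, edgeR adjusted p = 0.322). It was -0.15 without het 6, -0.17 without WT 8 and -0.41 without het 7. Gjc1, which encodes connexin 45 of the nodes and conduction system, was measured at 17.8, 18.3 and 20.7 CPM in the het libraries and at 20.1 and 18.9 CPM in the WT libraries. The groups overlapped, with a log2 difference of -0.04 (SE 0.14, 95% interval -0.35 to 0.27, edgeR adjusted p = 0.893), and its sign turned without het 5 or WT 7. Gjc1 rested on 323 to 600 expected counts per library, the fewest of the 10 genes.

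The mix of the 3 connexins was compared within each library as a share of their summed TPM, which does not depend on library scaling. Gja5 took 25.1%, 22.2% and 22.4% of the sum in het 5, het 6 and het 7 and 30.9% and 26.3% in WT 7 and WT 8. The 3 het shares (23.2% ± 1.61, SD, n = 3) lay under both WT shares (28.6% ± 3.24, SD, n = 2), a difference of -5.34 percentage points. An exact two-sided permutation test gave p = 0.2, which is the smallest that the 10 splits of 5 libraries allow, so no such comparison can pass 0.05. Without WT 7 the difference was -3.04 points. Gja1 took 70.5%, 72.8% and 73.8% in het and 63.8% and 69.7% in WT, and Gjc1 the remaining 3.76% to 5.35%. The ratio of Gja1 to Gja5 TPM was 2.81, 3.28 and 3.29 in the het libraries and 2.07 and 2.65 in the WT libraries, again without overlap.

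**Figure D1:**
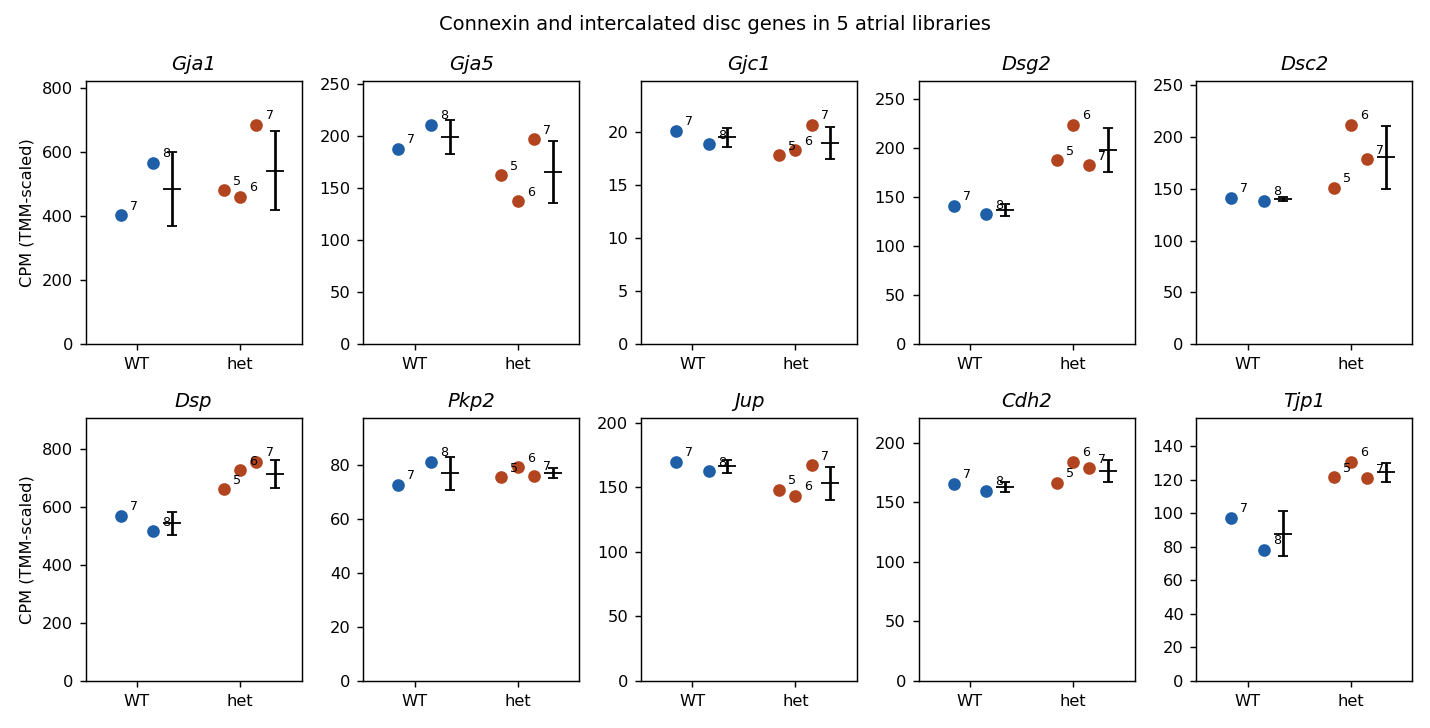
TMM-scaled CPM of each of the 10 genes (y axes, starting at 0 and scaled per gene) in the 2 WT and 3 het libraries (points, labelled by replicate number), with mean and SD as black bars. Dsg2, Dsc2, Dsp, Cdh2 and Tjp1 are higher in every het library than in both WT libraries, and the other 5 genes overlap between groups.

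Of the 10 genes, Dsg2 alone passed the test. It encodes desmoglein 2, the desmoglein of cardiomyocytes, whose extracellular part binds the neighbouring cell. Dsg2 stood at 187.6, 223.6 and 182.5 CPM in het 5, het 6 and het 7 and at 141.4 and 132.7 CPM in WT 7 and WT 8. All 3 het libraries were above both WT libraries, with means of 197.9 ± 22.4 CPM (SD, n = 3) and 137.1 ± 6.19 CPM (SD, n = 2). Dsg2 rose 1.44-fold, or by 0.53 on the log2 scale (SE 0.14, 95% interval 0.23 to 0.83, edgeR quasi-likelihood adjusted p = 0.0455). The call was lost whichever library was left out, with adjusted p from 0.0757 to 0.164 and log2 differences from 0.43 to 0.58. In bulk tissue, more cells of a type and more RNA per cell cannot be told apart.

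Dsc2 encodes desmocollin 2, the partner cadherin of desmoglein 2. Its CPM were 151.0, 211.5 and 178.3 in the het libraries and 141.4 and 138.3 in the WT libraries. Het 6 was the highest, and all het libraries lay above both WT libraries. The log2 difference of 0.37 (SE 0.15, 95% interval 0.04 to 0.70) had an unadjusted p of 0.0321 and an edgeR adjusted p of 0.160, and did not pass. Without het 6 it was 0.24. Dsc2 has a long-tailed form (Dsc2a) and a short-tailed form (Dsc2b), whose transcript Dsc2-201 holds an extra exon of 46 bases. Dsc2-201 took 57.9%, 66.5% and 56.0% of the gene's transcripts in het 5, het 6 and het 7 and 65.7% and 59.8% in WT 7 and WT 8, with overlap between the groups.

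Dsp encodes desmoplakin, which links the desmosomal plaque to intermediate filaments and was, with Jup, among the most abundant desmosomal genes per length. It has a long form, desmoplakin I (transcript Dsp-201, 9592 bases), and a form with a shortened rod, desmoplakin II (Dsp-202, 7761 bases). The coding part that only Dsp-201 holds is the 3′ stretch of exon 23 of 24, 1797 bases or 599 codons, at chr13:38191859-38193655 on the plus strand in GRCm38 (GENCODE M21). The sequences below are shown because the forms differ at these points. In the first, capitals mark the first 90 bases of that stretch, at chr13:38191799-38191948 with its flank, and they open with GT, the bases that usually open an intron. In the second, capitals mark its last 60 bases. In the third, capitals mark the 10 bases on each side of the join that skips it.
Dsp-201, start of the stretch: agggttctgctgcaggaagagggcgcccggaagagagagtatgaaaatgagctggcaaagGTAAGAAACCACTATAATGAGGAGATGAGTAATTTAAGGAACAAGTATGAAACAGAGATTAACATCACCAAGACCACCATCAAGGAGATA
Dsp-201, end of the stretch: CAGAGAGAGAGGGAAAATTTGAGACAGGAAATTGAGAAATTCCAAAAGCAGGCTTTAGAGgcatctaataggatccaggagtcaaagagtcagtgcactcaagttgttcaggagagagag
Dsp-202, join: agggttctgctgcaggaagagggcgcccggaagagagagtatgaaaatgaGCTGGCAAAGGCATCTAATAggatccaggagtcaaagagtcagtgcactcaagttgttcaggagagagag

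As a whole gene, Dsp stood at 660.3, 725.1 and 755.1 CPM in het 5, het 6 and het 7 and at 569.4 and 514.5 CPM in WT 7 and WT 8. The het libraries were all above the WT libraries. The log2 difference was 0.40 (SE 0.14, 95% interval 0.10 to 0.70), with an unadjusted p of 0.0139 and an edgeR adjusted p of 0.0997, which did not pass.

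The mix of the Dsp forms was compared as each form's share of the gene's transcripts. Dsp-201 made up 72.0%, 65.1% and 73.9% of the gene's transcripts in het 5, het 6 and het 7 and 56.5% and 35.7% in WT 7 and WT 8. Every het library was above both WT libraries, and WT 8 was the lowest. The difference was 24.3 percentage points (exact two-sided permutation p = 0.2, the smallest possible), 13.8 without WT 8 and 34.7 without WT 7. In TPM, Dsp-201 stood at 51.4, 53.9 and 67.0 in het and 36.3 and 19.2 in WT, and Dsp-202 at 19.4, 28.9 and 23.7 in het and 27.9 and 34.7 in WT. The long form therefore did not overlap between the groups, while the short form did. A test of transcript use over 31850 transcripts (edgeR's diffSpliceDGE) gave Dsp-202 a log2 difference of -0.94 from the rest of its gene (unadjusted p = 0.00487, adjusted p = 0.292), and one of -0.60 without WT 8 (adjusted p = 0.882). Across these transcripts 0.600% were called and 5.28% had an unadjusted p under 0.05, and no transcript of the 10 genes was called.

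Longer transcripts tended to take a larger share in the het libraries across the transcriptome. Over 4272 genes with a pair of transcripts of unequal length, the longer one's share had a median difference of 2.11 points and was higher in every het library in 23.6% of genes and lower in 12.7%. Against this background the Dsp difference, 24.5 points for the pair, stood at the percentile 95.2. Those of Jup (7.49 points) and Cdh2 (7.43 points) stood at 68.0 and 67.7, and that of Tjp1 (2.68 points, with overlap between the groups) at 52.6. The part of this trend in the Dsp result was not tested. Each pair held the transcripts with the highest mean shares of their gene. For Tjp1 these were Tjp1-202 and the non-coding Tjp1-203 (699 bases), and for Jup they were Jup-201 and the non-coding Jup-207 (441 bases). Between the coding forms Tjp1-202 and Tjp1-201, the longer Tjp1-202 differed by -12.9 points. As a share of expected counts Jup-201 differed by 0.80 points, with overlap.

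**Figure D2:**
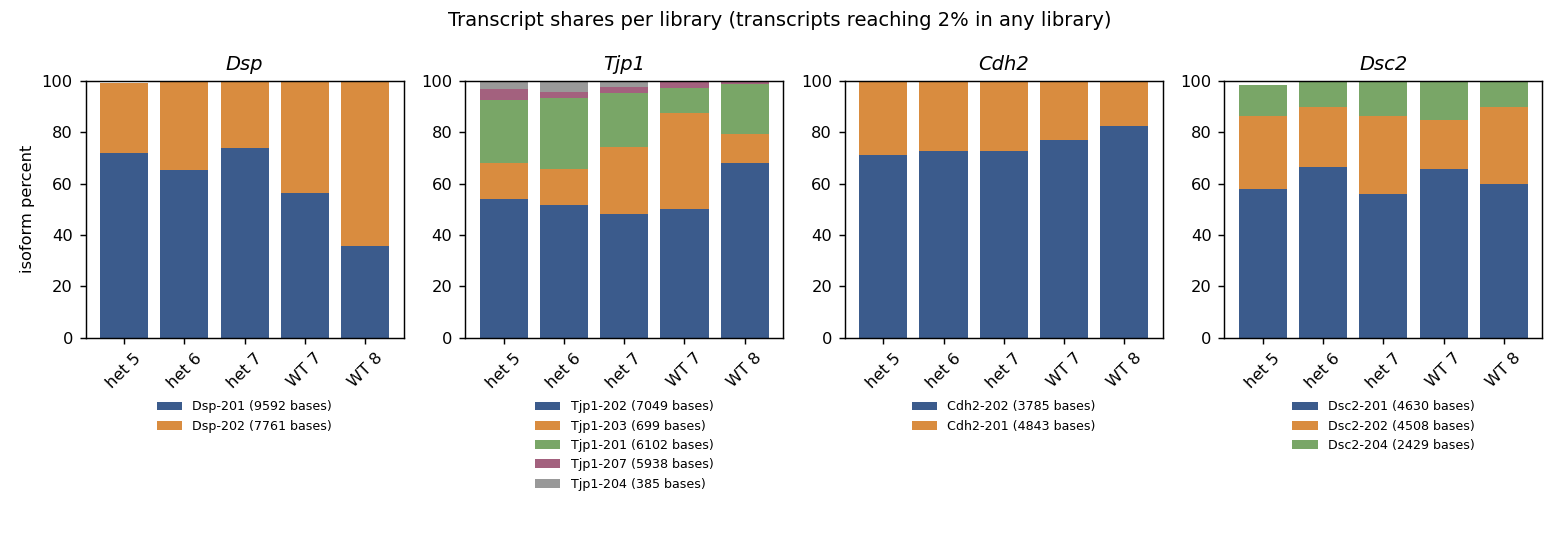
Share of each gene's transcripts (isoform percent, y axis) in the 5 libraries for Dsp, Tjp1, Cdh2 and Dsc2, with transcripts that reached 2% in any library as stacked segments. Dsp-201 is at 65.1% to 73.9% in het and at 56.5% and 35.7% in WT, while the leading transcripts of Tjp1 and Dsc2 overlap between groups.

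Of the armadillo proteins of the plaque, neither gene passed the test. Pkp2 encodes plakophilin 2, which binds desmoplakin and the cadherin tails. Its CPM were 75.6, 79.1 and 76.1 in het and 72.7 and 81.3 in WT. The het values lay between the WT values, and the log2 difference was -0.0002 (SE 0.12, 95% interval -0.26 to 0.26, edgeR adjusted p = 0.9996). Its sign turned without het 5, het 7 or WT 8. Jup encodes plakoglobin, found in both desmosomes and adherens junctions. It stood at 148.3, 143.5 and 167.4 CPM in het and at 170.0 and 162.5 CPM in WT. Only het 7 reached into the WT range, and the log2 difference was -0.12 (SE 0.13, 95% interval -0.40 to 0.16, edgeR adjusted p = 0.615). It was -0.07 without het 6 and -0.19 without het 7.

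The makeup of the 5 desmosomal genes was compared within each library in the same way as for the connexins. Dsp took 30.8%, 30.6% and 31.9% of their summed TPM in het 5, het 6 and het 7 and 27.6% and 27.9% in WT 7 and WT 8, a difference of 3.37 points. Jup took 27.6%, 23.2% and 27.6% in het and 35.3% and 32.2% in WT, a difference of -7.60 points. Neither overlapped, and each had the smallest exact two-sided permutation p of 0.2. Dsg2 took 14.1%, 15.6% and 12.6% in het and 10.9% and 10.8% in WT, also without overlap. Dsc2 took 15.5%, 19.2% and 16.8% in het and 14.7% and 15.1% in WT, without overlap and 2.25 points apart (exact two-sided permutation p = 0.2), but overlapped as a share of expected counts (0.41 points). Pkp2 took 11.1% to 14.1% and overlapped. The ratio of Dsp to Jup TPM was 1.12, 1.32 and 1.16 in het and 0.782 and 0.865 in WT, so Dsp exceeded Jup in the het libraries and not in the WT libraries. It was 1 of 9 ratios computed. Jup TPM includes the non-coding Jup-207 (441 bases, a mean of 35.9 expected counts against 3501 for Jup-201). Jup-207 took 19.89%, 18.52% and 15.45% of Jup transcripts in het and 29.48% and 21.49% in WT. As a share of expected counts Jup still did not overlap, at 12.1%, 10.4% and 12.3% in het and 15.5% and 15.8% in WT. The part of Jup-207 in the Jup share and the ratio was not tested. Dsp, Dsg2 and Dsc2, whose shares were higher in het, average 8860, 5693 and 4330 bases. Jup and Pkp2 average 2538 and 2917 bases. Across all tested genes longer genes tended to be higher in het, as given below. The part of that trend in these shares and the ratio was not tested.

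**Figure D3:**
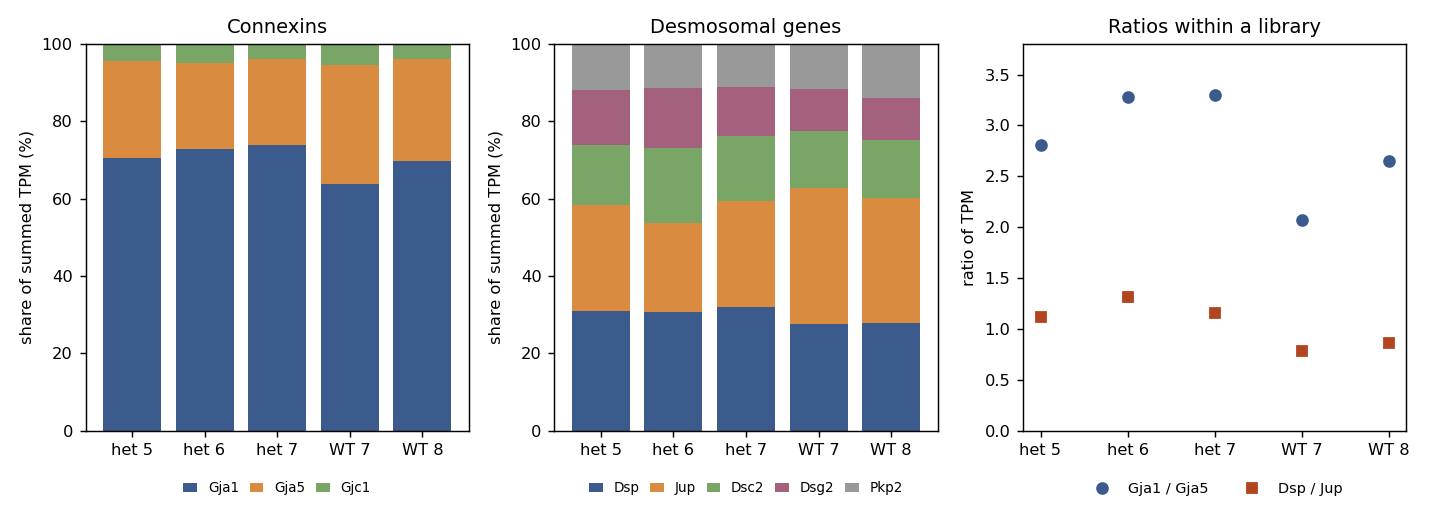
Shares of summed TPM in the 5 libraries (y axis, percent) for the 3 connexins and the 5 desmosomal genes, and the ratios of Gja1 to Gja5 and Dsp to Jup TPM in each library. The Gja5 share is 22.2% to 25.1% in het and 26.3% and 30.9% in WT, and the Dsp to Jup ratio is above 1 in the het libraries alone. TPM of a gene here includes its non-coding transcripts, such as Jup-207.

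Cdh2 encodes N-cadherin, the classical cadherin that joins cardiomyocytes at the disc. It stood at 166.3, 184.1 and 178.5 CPM in het and at 165.7 and 159.7 CPM in WT. The het libraries were above the WT libraries, het 5 by less than 1 CPM, and the log2 difference was 0.12 (SE 0.13, 95% interval -0.16 to 0.39, edgeR adjusted p = 0.618). Its transcripts Cdh2-202 (3785 bases) and Cdh2-201 (4843 bases) differ in their number of exons. Cdh2-202 took 71.1%, 72.7% and 72.8% in het and 77.0% and 82.3% in WT, lower in every het library by 7.47 points on average (exact two-sided permutation p = 0.2) and by 4.83 points without WT 8. Dsp and Cdh2 were the 2 of 10 genes whose leading transcript's share did not overlap between the groups, where this held for 28.3% of 8844 genes with enough counts and more than 1 transcript. The count was 6 of 10 without WT 7 (63.2% of genes) and 4 of 10 without WT 8 (53.4%) or het 6 (40.1%).

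Tjp1 encodes ZO-1, the scaffold that binds the tail of connexin 43 at the edge of gap junctions. It has forms with and without the alpha exon, here exon 20 of 28 of Tjp1-202, 240 bases or 80 codons at chr7:65314093-65314332 on the minus strand in GRCm38. The sequences are shown because this exon is the known difference between the forms, beside others at their ends. Capitals mark the exon in the first, and the 10 bases on each side of the join in the second.
Tjp1-202, alpha exon: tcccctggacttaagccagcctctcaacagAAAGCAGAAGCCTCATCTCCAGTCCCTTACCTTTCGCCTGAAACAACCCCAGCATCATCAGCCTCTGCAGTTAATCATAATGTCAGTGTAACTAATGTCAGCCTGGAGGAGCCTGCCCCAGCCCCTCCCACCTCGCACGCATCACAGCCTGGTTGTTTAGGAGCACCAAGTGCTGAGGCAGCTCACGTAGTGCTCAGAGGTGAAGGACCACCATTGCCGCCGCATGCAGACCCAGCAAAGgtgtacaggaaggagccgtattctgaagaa
Tjp1-201, join: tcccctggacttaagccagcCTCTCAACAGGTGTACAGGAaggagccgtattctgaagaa

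Tjp1 stood at 121.5, 130.8 and 120.9 CPM in het 5, het 6 and het 7 and at 97.4 and 78.2 CPM in WT 7 and WT 8. All het libraries were above both WT libraries in CPM, while in TPM WT 7 (22.0) exceeded het 5 (21.5). The log2 difference was 0.50 (SE 0.14, 95% interval 0.21 to 0.80), with an unadjusted p of 0.00285 and an edgeR adjusted p of 0.0501. Tjp1 was thus just outside the threshold of 0.05 and Dsg2, at 0.0455, just inside it. Without WT 7, Tjp1 passed with an edgeR adjusted p of 0.0351 and a log2 difference of 0.67. It did not pass without WT 8 (log2 difference 0.37, adjusted p = 0.138) or without any 1 het library (edgeR adjusted p from 0.0941 to 0.156).

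Tjp1-201, which lacks the alpha exon, stood at 5.23, 6.81 and 5.84 TPM in het and 2.17 and 2.22 TPM in WT. Tjp1-202, which holds it, stood at 11.6, 12.7 and 13.2 TPM in het and 11.1 and 7.80 TPM in WT. Of the sum of these 2 forms, Tjp1-202 took 69.0%, 65.1% and 69.3% in het and 83.6% and 77.8% in WT, lower in every het library by 12.9 points (exact two-sided permutation p = 0.2). This pair was chosen after its values were seen. The test of transcript use gave Tjp1-201 a log2 difference of 0.79 from the rest of its gene (unadjusted p = 0.0207, diffSpliceDGE adjusted p = 0.623). A non-coding fragment of 699 bases, Tjp1-203, took 11.4% to 37.3% of the gene's transcripts.

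Counted together, 1 of the 10 genes was called higher and 0 lower, where 5.64% of the 16412 tested genes were called (2.99% higher and 2.66% lower). These were 490 higher and 436 lower genes, a split that turned with scaling, to 795 and 391 with library size alone and 327 and 568 with upper quartile scaling. In CPM, het libraries lay above WT libraries in 5 of the 10 genes and below in 0, where 42.3% of tested genes did not overlap (21.1% above and 21.1% below). In TPM the set differed: Tjp1 overlapped, and so did Cdh2 (41.85 in het 5 and 42.82 in WT 7). Pkp2 then lay above, at 27.8 to 31.6 TPM in het and 26.9 and 27.2 in WT. An unadjusted p under 0.05 was reached by 4 of the 10, and by 24.7% of tested genes. The median log2 difference was 0.14 over the 10 genes and -0.001 over all tested genes.

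Gene length moved with these differences. Across tested genes the median log2 difference went from -0.38 in the shortest of 10 length classes of equal size to 0.33 in the longest. Dsp, Dsg2 and Tjp1 belong to the longest class and lay at its percentiles 58.6, 76.9 and 73.7, while Gja5 lay at the percentile 13.3 of its own class. With trends on length and GC content removed from each library, edgeR's quasi-likelihood test gave Dsg2 a log2 difference of 0.24 (adjusted p = 0.400), Tjp1 one of 0.21 (adjusted p = 0.482) and Dsp one of 0.29 (adjusted p = 0.301). Dsc2 then differed by 0.09 and Gja5 by -0.34 (unadjusted p = 0.0407, edgeR adjusted p = 0.336). None of the 10 was called in that fit, in which 0.347% of tested genes were called and 13.7% had an unadjusted p under 0.05.

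The authors' deposited table compares het with WT atria of this series, so it is not independent of the 5 libraries, and which libraries entered it is not given in the sources used here. Of its 14927 genes 0% were called in the authors' deposited table, and 836 had an unadjusted p under 0.05. In the authors' deposited table Dsg2 had a log2 fold change of 0.43 (interval -0.15 to 1.01) and Jup one of -0.32 (interval -0.84 to 0.20). The authors' deposited table gave the other 8 genes log2 fold changes from -0.05 (Gjc1) to 0.29 (Cdh2), with Dsp at 0.11, Tjp1 at 0.07 and Gja5 at 0.10. The adjusted p in the authors' deposited table was 0.99998 for each of the 10. Its t was 0 for Dsp, Gja1, Gja5, Gjc1, Pkp2, Dsc2 and Tjp1, although their log2 fold changes were not 0. The authors' test may therefore not be one of no change, as edgeR's is. Its p-values and calls are thus not on the same footing as those above.

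**Figure D4:**
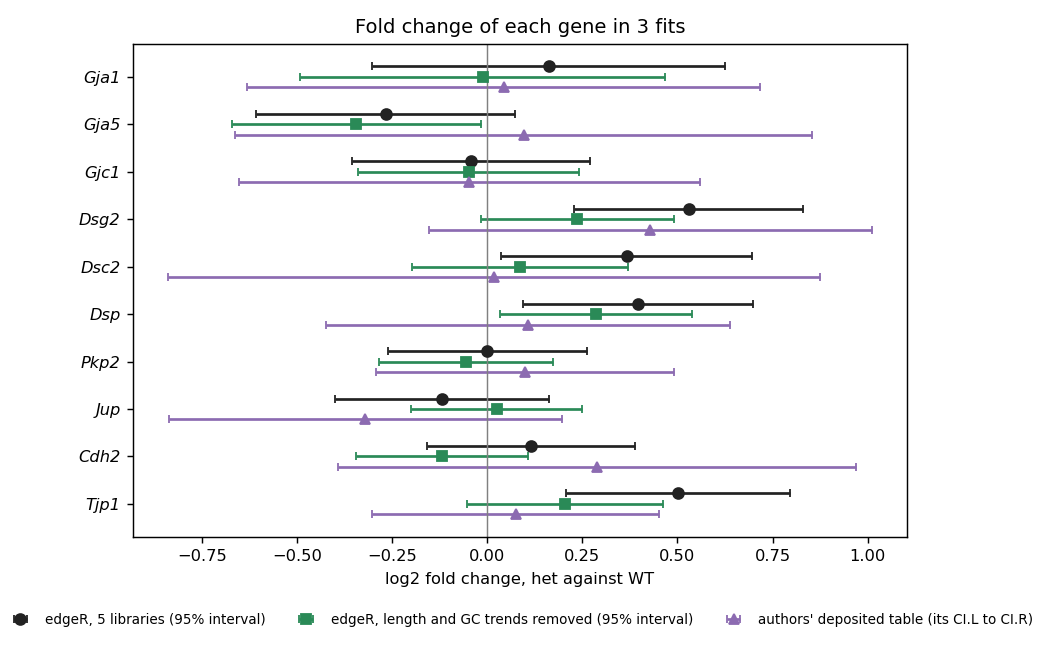
Log2 fold change, het against WT (x axis), of the 10 genes in the edgeR fit of 5 libraries, in the fit with length and GC trends removed (both with 95% intervals) and in the authors' deposited table (with its own interval). Dsg2 is at 0.53, 0.24 and 0.43 and Tjp1 at 0.50, 0.21 and 0.07 in the 3 fits.

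Marker sums of working cardiomyocytes, of macrophages, and of smooth muscle cells and pericytes did not overlap between the groups. The summed CPM of 12 working cardiomyocyte markers was 69542 to 78417 in het and 94505 and 99670 in WT, with 7 of the 12 lower and 2 higher in every het library. Nppa, 1 of the 12, averaged 19544 CPM in het and 30492 CPM in WT and fell by 0.64 (SE 0.16, edgeR adjusted p = 0.0410), a call lost whichever library was left out. With length and GC trends removed Nppa differed by -0.33 (edgeR adjusted p = 0.386). The 9 macrophage markers summed to 341 to 481 CPM in het and 293 and 309 in WT, with 5 of 9 higher in every het library. Over all tested genes, 21.1% were higher and 21.1% lower in every het library. Smooth muscle and pericyte markers summed to 553 to 639 CPM in het and 649 and 700 in WT. Of these 10 markers 4 were lower and 1 higher in every het library, and the others overlapped. The higher one was Rgs5, at 213 to 239 CPM in het and 160 and 193 in WT. Sums of fibroblast, endothelial, conduction system, ventricular, adipocyte, nerve and epicardial or epithelial markers overlapped between the groups. Of the 12 epicardial, mesothelial and epithelial markers, 1 was at 0 in every library and 4 were under 1 CPM. The part of these cell types in the levels of the 10 genes was not tested, nor was the part of the length trend in these markers.

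The remaining genes of the same structures were taken from lists. Over all tested genes, 5.64% were called and 24.7% had an unadjusted edgeR p under 0.05. Of 20 other connexins and pannexins, 7 were tested and 0 called (0 higher and 2 lower at an unadjusted p under 0.05, median log2 difference -0.35). Gja4, the connexin 37 of vessels, stood at 8.26 to 12.95 CPM in het and 13.3 and 19.6 CPM in WT (log2 difference -0.57, SE 0.23, edgeR adjusted p = 0.147), and its log2 difference was -0.25 without WT 8. Gja3 differed by -0.17 (SE 0.15, adjusted p = 0.510). Of 15 other desmosomal and filament genes, 8 were tested and 0 called in edgeR, with 1 at an unadjusted p under 0.05. That gene was Des, which encodes the intermediate filament protein that desmoplakin anchors in muscle, at 875 to 918 CPM in het and 1140 and 1284 CPM in WT (log2 difference -0.45, SE 0.14, edgeR adjusted p = 0.0699). Pkp4, a relative of the plakophilins, differed by 0.0002 (SE 0.13, edgeR adjusted p = 0.999).

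Of 23 genes of the adherens junction and area composita, 22 were tested, 2 were called higher and 1 lower, with a median log2 difference of 0.11. Over all tested genes 2.99% were called higher and 2.66% lower. Ctnna3, the alpha-T-catenin that binds plakophilin 2, rose by 0.74 (SE 0.15, edgeR adjusted p = 0.0270), from 15.7 and 17.4 CPM in WT to 24.4 to 30.8 CPM in het. Vcl, which encodes the actin linker vinculin, rose by 0.64 (SE 0.15, edgeR adjusted p = 0.0344). Nectin2, a cell adhesion molecule, fell by 0.57 (SE 0.14, edgeR adjusted p = 0.0398).

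Of 22 scaffold, delivery and channel partner genes, 21 were tested, with Magi3 called higher and Cav3 lower. Magi3, a membrane scaffold gene, rose by 0.50 (SE 0.12, edgeR adjusted p = 0.0398), and Cav3, the muscle caveolin gene, fell by 0.67 (SE 0.15, edgeR adjusted p = 0.0310). Among 18 connexin kinases and regulators, 2 were called higher and 0 lower. Over all tested genes 5.64% were called, and no list was tested as a set. Etv1, a transcription factor gene of fast-conducting atrial muscle, rose by 0.75 (SE 0.12, edgeR adjusted p = 0.0229), and the kinase gene Gsk3b by 0.50 (SE 0.12, edgeR adjusted p = 0.0414). Each of the 7 calls in these lists was lost in some fits with 1 library left out, with no change of sign. Nectin2, Magi3 and Gsk3b lost theirs in all 5, Vcl in all but that without WT 8, and Cav3 in all but that without WT 7. Ctnna3 and Etv1 lost theirs without any 1 het library and kept them without WT 7 or WT 8. None of the 7 passed with length and GC trends removed.

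The genes whose profiles over the 5 libraries lay nearest to each connexin were taken from 11228 genes with a mean of at least 5 CPM, by the Euclidean distance of centred log2 CPM. Nearest to Gja1 were Trim55 (distance 0.088), Lox (0.088) and Pgam1 (0.10). Nearest to Gja5 were Letm1 (0.10), Arhgef19 (0.10) and Mrpl34 (0.11), and nearest to Gjc1 were Ttc4 (0.032), Scarf2 (0.041) and Tmem63a (0.050). With 5 libraries and this many genes, near profiles are a description of these libraries.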

How the data were processed

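Stranded polyA libraries of atria were sequenced by the submitters. STAR, RSEM and GRCm39 are among the names given, without versions, per the submitters' processing notes. The deposited gene and transcript tables hold expected counts as the authors' quantifier estimated them, not normalized, per the file headers. They also hold TPM and FPKM, scaled by the authors for length and depth, and the isoform percent that the authors deposited per transcript. A table of the authors' own comparison, also deposited, holds log2 fold changes, scores (t) and p-values, and its design is not given in the sources used here.

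Expected counts were rounded. Genes passing edgeR's default filter entered edgeR's robust quasi-likelihood test after TMM scaling, adjusted by Benjamini-Hochberg over 16412 genes at 0.05 (biological coefficient of variation 0.18). SEs are the absolute log2 difference divided by the square root of F, and 95% intervals use the test's degrees of freedom. Depth was 17784601 to 28353091 counts per library, and the SEs also carry the spread between libraries. Shares were tested by exact permutation. The diffSpliceDGE test of transcript use, the background of leading transcripts (genes with a mean count of at least 200 and more than 1 transcript with a count) and the alternatives for list genes were chosen after the data were seen. Members and lists were chosen with earlier results of these data known. Named were the 10 genes, Mrc2, and per list up to 4 called genes, or up to 2 of the highest TPM where none was called. Nppa, Rgs5, Ddx3y, Xist and the Tjp1 pair are further. Of the cell type marker lists, the summed levels are given in place of single genes. GC content was known for 98.4% of tested genes.

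Transcripts were matched by ID to GENCODE M21 (GRCm38), with equal lengths for those printed, and sequences and coordinates come from that build. On simulated data for het against WT (16003 genes, 197 changed), recovery was 51% for changes of 1 on the log2 scale and 100% for changes of 2, with 3 of 151 calls false. Alternatives were other scalings, filters and tests, length and GC offsets (mgcv), TPM with pseudocounts of 1 and 0.1, and each library left out. The tests ran in edgeR 4.0.16 under R 4.3.3, and the alternatives also in DESeq2 1.42.0, limma 3.58.1 and mgcv 1.9.3.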

Additional observations from a re-analysis of the deposited data

How the results depend on the processing

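The number of the 10 genes called was 1, and 1 with RLE size factors. It was 0 with upper quartile scaling, a mean of at least 1 CPM, the length trend removed, length and GC trends removed, limma-voom with or without quality weights, and limma-trend on log2(TPM + 1) or log2(TPM + 0.1). It was 2 with library size alone, 3 with every gene with a count and 3 with DESeq2 (Dsg2, Dsp and Tjp1). Leaving out 1 library gave 0 to 1. Across 17 alternatives Dsg2 (0.24 to 0.67), Tjp1 (0.21 to 0.67), Dsp (0.24 to 0.47), Dsc2 (0.09 to 0.50) and Gja5 (-0.41 to -0.10) kept their sign. Over all tested genes the calls numbered 926, 2211 with every gene with a count, 1647 with DESeq2, 459 with limma-voom, 0 with quality weights (3632 at an unadjusted p under 0.05), 1 and 5 in the TPM fits, 31 with the length trend removed, 57 with length and GC trends removed, and 0 to 878 with 1 library left out. The median of all genes shifted to -0.14 with every gene with a count and to 0.13 on log2(TPM + 0.1).

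Signs turned for genes near 0, and the cause was not tested. Gjc1 came to 0.0017 with library size alone, 0.0078 with every gene with a count, 0.012 with the length trend removed, and 0.087 and 0.094 in the TPM fits with pseudocounts of 1 and 0.1. Pkp2 came to 0.045 with library size alone, 0.048 with every gene with a count, 0.0014 with limma-voom, and 0.147 and 0.152 in the TPM fits. With length and GC trends removed Gja1 came to -0.012, Jup to 0.025 and Cdh2 to -0.12, and Cdh2 to -0.034 with the length trend alone. With 1 library left out Gja1 ran from -0.062 to 0.44, Gjc1 from -0.11 to 0.0084 and Pkp2 from -0.077 to 0.097.

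As shares of expected counts, the leading transcript's difference turned sign for Gja5 (0.015 points), Gjc1 (-0.30), Pkp2 (-0.052) and Dsg2 (0.00090). On those shares 3 genes did not overlap, Dsp, Cdh2 and Tjp1. With 1 library left out that number ran from 2 to 6, and the difference ran from -0.61 to 0.19 points for Gja1, -1.70 to 3.58 for Gjc1, -0.26 to 0.35 for Pkp2, -1.48 to 0.65 for Dsg2, -5.81 to 0.36 for Dsc2, -10.1 to -4.83 for Cdh2 and -16.8 to 0.99 for Tjp1. The Dsp-202 difference in transcript use, an alternative chosen after seeing the data, ran from -1.23 to -0.60. The Gja5 share differed by -7.63 to -3.04 points and the Dsp share by 2.98 to 3.64. Fits without WT 7 or WT 8 assume that the lone WT library varies like the het libraries. The labels give no pairing of het with WT libraries, so no paired analysis was run. Precision did not follow depth alone: Gjc1, with the fewest counts, had an SE of 0.14 and Gja1 one of 0.21.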
